A study of Mus musculus with 32 samples.

Results

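The 10 genes that newly formed neurons use early in their differentiation, as listed here, were described across sympathetic ganglia and cultured spheres of a mouse neuroblastoma model: the transcription factors Neurod1, Neurod4, Nhlh1, Nhlh2, Sox4 and Sox11, the neuronal proteins Dcx, Stmn2 and Elavl4, and the secreted protein Igfbpl1. They were taken by symbol from the RefSeq accessions of the array's probes and make up 10 of the 20660 genes that could be named, with 17 probes of the 55681 probes on the array. The symbols were chosen with their levels in these samples known, so the levels by group and the differences between groups are given as descriptions, without p-values. How many of the genes were called in the fits across all genes is given once, beside the share of all genes, and nothing is read from it. Tests were kept for the spread among samples of 1 group, which was not itself used for that choice, and for other early neuronal genes. The test against mitosis genes within 1 kind of ganglion is not fully independent of the choice, as set out below. The list of those other genes was also drawn up with earlier results of these data known, so its p-values are not independent support.

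RNA was measured on 32 one-colour Agilent arrays in 28 samples of 4 groups, all from mice 3 weeks old on the 129+Ter/SvJcl background. Passaged spheres (4 cultures, 2 arrays each, averaged to 1 value per culture) and primary spheres (8 cultures) were grown from TH-MYCN hemizygous mice (TH-MYCN+/-), the primary spheres for 8 days and the passaged spheres through 5 passages. The superior mesenteric ganglion (SMG), a prevertebral sympathetic ganglion, was taken from 8 TH-MYCN hemizygous mice and from 8 wild-type mice. TH-MYCN mice carry human MYCN under the tyrosine hydroxylase promoter, which drives it in catecholaminergic cells, so the transgene is present in all groups except the wild-type SMG. The labels do not say whether spheres and ganglia came from the same animals.

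In sympathetic ganglia, neural crest progenitors become neuroblasts and then postmitotic neurons. Proneural basic helix-loop-helix (bHLH) factors start this programme. They pair with E proteins and bind E-boxes, short DNA sites of the form CANNTG, while Id proteins occupy the E proteins and oppose them. NeuroD and Nhlh factors follow the proneural factors, the SoxC proteins Sox4 and Sox11 activate genes of young neurons and support the growth of sympathetic ganglia, and proteins of the growing axon such as doublecortin and stathmin-2 come next. MYC proteins, MYCN included, bind the E-box CACGTG with their partner MAX.

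Promoters of 8 of the 10 genes (all except Stmn2 and Igfbpl1) were found in the RefSeq table of mouse assembly GRCm38.p6. Each was taken as the 250 bases before the first transcript start listed for the gene. Neurod4 and Dcx had 2 starts listed and Elavl4 had 4, and their other starts were not searched. The 4 printed below belong to the 2 pairs of close relatives, because the Sox pair had nearly the same pattern over the groups and the Nhlh pair did not. They lie at chr1:172057597-172057846 on the minus strand (Nhlh1), chr3:102009895-102010144 on the plus strand (Nhlh2), chr13:28953700-28953949 on the minus strand (Sox4) and chr12:27342719-27342968 on the minus strand (Sox11), and are written 5′ to 3′ along the gene with every CANNTG in capitals.
Nhlh1: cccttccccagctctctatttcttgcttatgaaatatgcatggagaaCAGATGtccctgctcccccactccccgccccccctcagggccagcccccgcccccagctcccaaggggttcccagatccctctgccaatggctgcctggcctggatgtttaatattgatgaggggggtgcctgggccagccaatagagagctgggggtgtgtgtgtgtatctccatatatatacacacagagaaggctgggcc
Nhlh2: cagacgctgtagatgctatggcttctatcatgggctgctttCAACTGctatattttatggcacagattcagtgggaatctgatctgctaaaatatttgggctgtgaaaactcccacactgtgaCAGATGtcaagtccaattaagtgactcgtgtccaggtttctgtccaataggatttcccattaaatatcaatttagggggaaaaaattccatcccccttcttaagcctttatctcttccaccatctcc
Sox4: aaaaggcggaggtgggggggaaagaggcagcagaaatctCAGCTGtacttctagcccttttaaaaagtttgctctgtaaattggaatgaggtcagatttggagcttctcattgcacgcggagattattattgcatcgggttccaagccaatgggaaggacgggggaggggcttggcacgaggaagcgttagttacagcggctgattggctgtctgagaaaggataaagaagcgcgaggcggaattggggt
Sox11: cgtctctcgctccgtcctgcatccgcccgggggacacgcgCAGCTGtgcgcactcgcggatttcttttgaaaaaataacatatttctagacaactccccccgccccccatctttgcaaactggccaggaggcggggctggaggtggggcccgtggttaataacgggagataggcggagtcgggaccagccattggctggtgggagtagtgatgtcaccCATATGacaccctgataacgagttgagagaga
Both strands were searched for 3 forms of CANNTG. The first was CACGTG, the second was CAGCTG, and the third was CATCTG with its reverse complement, which is read as CAGATG. The form CAGCTG stood in the Sox4 and Sox11 promoters, which is 2 of 8, against 12.8% of 27025 mouse promoters of the same length. The third form stood in those of Nhlh1 and Nhlh2, again 2 of 8, against 14.5% of all promoters. CACGTG was in 0 of the 8 (6.05% of all promoters), and a CANNTG of any kind was in 5 of the 8 (66% of all). Those without one were Neurod4, Dcx and Elavl4, the genes with more than 1 start listed. These are matches of letters in 1 window and carry no measurement of binding.

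Levels are given as log2 of the processed spot signal minus the array's own 75th percentile, so 1 unit is a doubling of the signal. A level says how a probe compares between samples, and probes of different genes are not set against each other. The 75th percentile of signal was 323 to 539 on passaged sphere arrays, 464 to 564 on primary sphere arrays, 840 to 1358 on TH-MYCN SMG arrays and 523 to 989 on wild-type SMG arrays, and the signal of passaged spheres was thus the weakest. Passaged and primary spheres shared 2 slides and both kinds of SMG shared 2 others, which leaves slide and group inseparable for primary spheres against TH-MYCN SMG. The ganglia are mixed tissue, and fewer cells of a type and less RNA per cell cannot be told apart in them.

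A few samples stood apart. TH-MYCN SMG 4 had the lowest mitosis score of its group (the mean log2 level of 16 mitosis genes), 0.38, against 1.31 to 2.49 in the other TH-MYCN SMG. Primary spheres on slide 3 had more glial and fibroblast signal than those on slide 4: 7 of 9 glial genes and 3 of 4 fibroblast genes tested were higher there. Scores of other cell types were far apart between spheres and ganglia. The glial score was -3.40 to -3.11 in passaged spheres, -3.17 to -0.80 in primary spheres, 0.60 to 1.58 in TH-MYCN SMG and 1.81 to 2.14 in wild-type SMG. The macrophage score was -5.31 to -4.95 in passaged spheres, -5.83 to -4.75 in primary spheres, 1.58 to 2.49 in TH-MYCN SMG and 0.85 to 1.53 in wild-type SMG. The macrophage genes C1qa, C1qc and Adgre1 were above background on no array of either kind of sphere. Of the same list, C1qb, Csf1r and Fcer1g were above background on 8 of 8 primary sphere arrays, and Aif1 and Tyrobp on 1 of 8. All 10 sympathetic identity genes, among them Th and Dbh, were above background in every group, with scores of 4.36 to 5.13 in passaged spheres, 4.16 to 4.79 in primary spheres, 5.47 to 6.04 in TH-MYCN SMG and 5.80 to 6.48 in wild-type SMG.

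**Figure D1:**
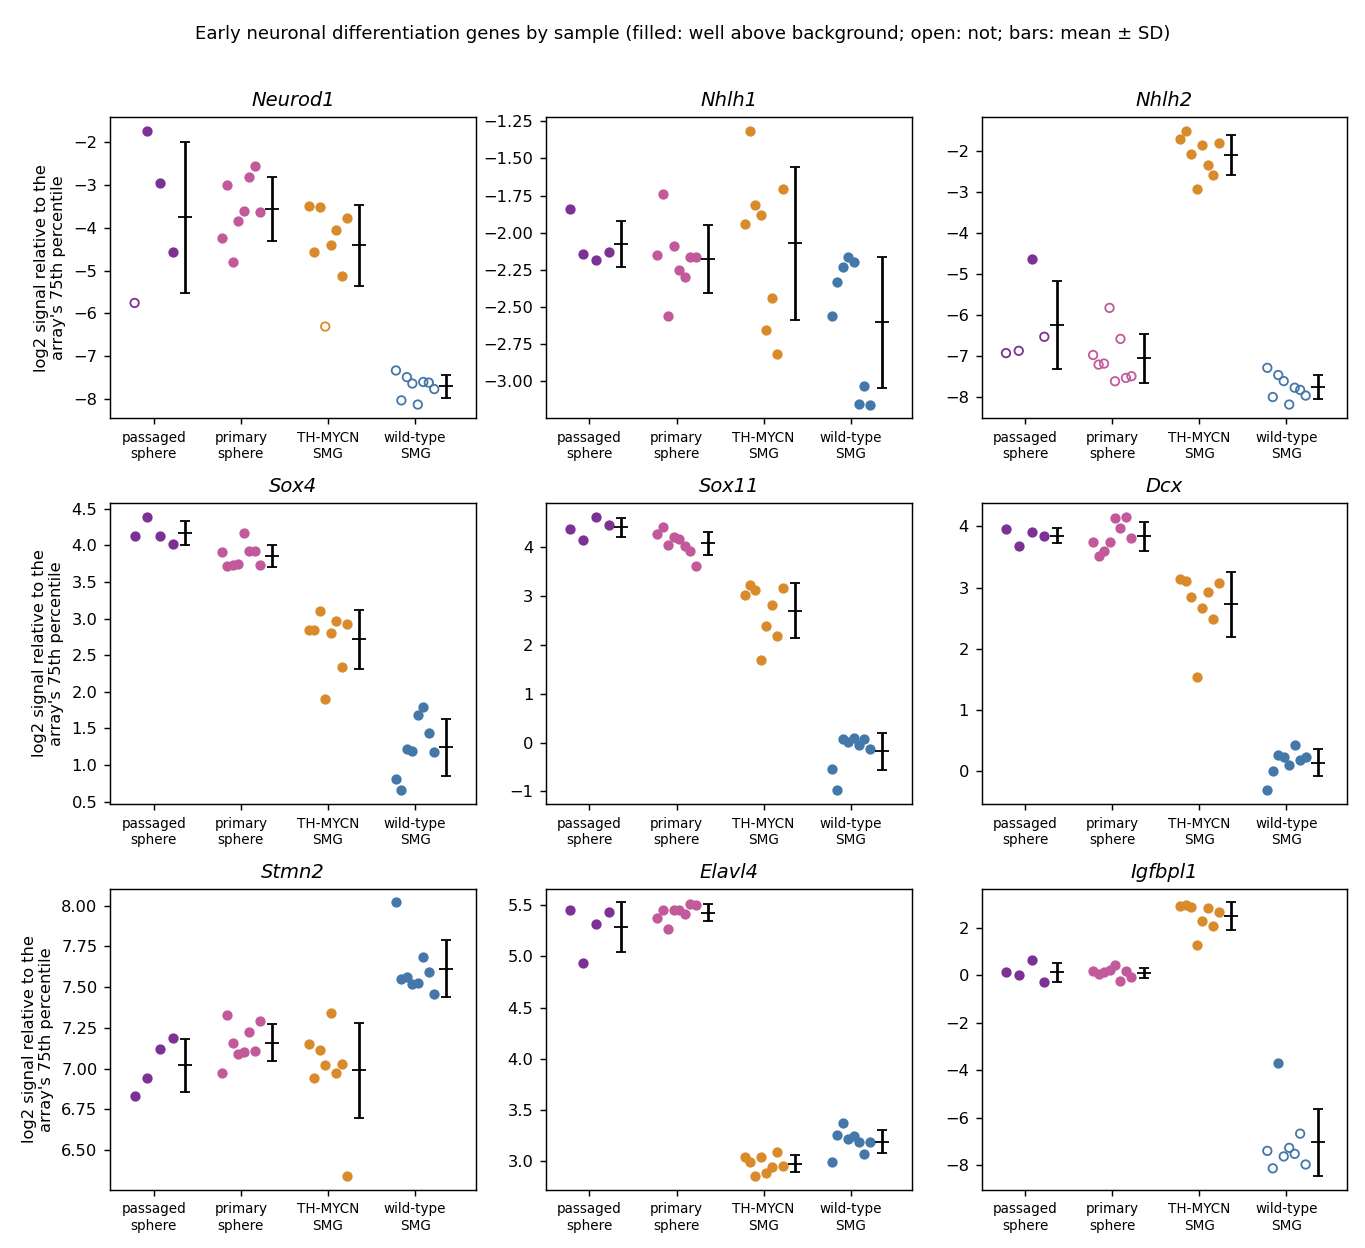
Level of 9 of the 10 genes in every sample (y axis, log2 signal relative to the array's 75th percentile) in passaged spheres, primary spheres, TH-MYCN SMG and wild-type SMG. Each point is 1 sample, open where the probe was not well above background, and each bar is the mean ± SD of a group. Sox4, Sox11 and Dcx are lower in ganglia than in spheres and lowest in wild-type SMG, Nhlh2 is high in TH-MYCN SMG alone, and Elavl4 separates spheres from ganglia.

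Of the bHLH factors, Neurod1 and Nhlh2 were below detection in wild-type ganglia and measurable in TH-MYCN ganglia, Nhlh1 was detected everywhere at similar levels, and Neurod4 was detected nowhere.

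Neurod1, a factor of neuronal and neuroendocrine differentiation, had levels of -5.75, -1.75, -2.96 and -4.56 in passaged sphere cultures 1 to 4 and of -4.79 to -2.55 (median -3.62) in primary spheres. It had -6.30 to -3.50 (median -4.23) in TH-MYCN SMG and -8.12 to -7.33 (median -7.62) in wild-type SMG. The passaged cultures spanned a wider range than all primary spheres together. The probe was well above background on 5 of 8 passaged arrays, on 8 of 8 primary sphere arrays, on 7 of 8 TH-MYCN SMG arrays and on 0 of 8 wild-type arrays. TH-MYCN SMG averaged -4.41 ± 0.95 and wild-type SMG -7.69 ± 0.27 (SD, n = 8 each), and the groups did not overlap. Set against the lowest signal above background on the wild-type arrays, the level in TH-MYCN SMG was at least 2.53-fold higher in this scaling. With another background correction (normexp, which compresses dim signals) the log2 difference was 0.28. Primary spheres averaged -3.56 ± 0.75 (SD, n = 8), 0.85 above TH-MYCN SMG with an SE of 0.40, and the groups overlapped. Neurod1's other probe gave at least 1.69-fold for TH-MYCN against wild-type SMG and 1.47 (SE 0.38) for primary spheres against TH-MYCN SMG. With that probe the 2 kinds of ganglia overlapped, and 5 of 8 TH-MYCN SMG arrays were above background.

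Neurod4, a close relative of Neurod1 in the same family, was not well above background on any of the 32 arrays, and its levels were not compared.

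Nhlh2, a factor of developing neurons including sympathetic and hypothalamic ones, had -1.96 as the median level in TH-MYCN SMG (-2.92 to -1.50), where all 8 arrays were well above background. The values were -6.93, -6.87, -4.64 and -6.53 in passaged cultures 1 to 4, with 1 of 8 arrays above background, and -7.62 to -5.82 (median -7.20) in primary spheres, with 0 of 8. Wild-type SMG had -8.19 to -7.29 (median -7.80), also with 0 of 8. No sample of another group reached the lowest TH-MYCN SMG. Its level in TH-MYCN SMG averaged -2.09 ± 0.48, at least 12.6-fold higher than in wild-type SMG, although the fitted log2 difference was 1.62 with another background correction (normexp). In primary spheres it was at least 10.3-fold lower than in TH-MYCN SMG (fitted log2 difference of -1.24 after normexp).

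Nhlh1, its nearest relative, was above background on every array. It had -1.84, -2.15, -2.18 and -2.13 in the passaged cultures, -2.56 to -1.74 (median -2.17) in primary spheres, -2.82 to -1.31 (median -1.91) in TH-MYCN SMG and -3.16 to -2.17 (median -2.45) in wild-type SMG. All 4 groups overlapped. The TH-MYCN SMG averaged -2.07 ± 0.52 and the wild-type SMG -2.60 ± 0.44 (SD, n = 8 each), a difference of 0.53 (SE 0.22). Primary spheres differed from TH-MYCN SMG by -0.11 (SE 0.19), and passaged from primary spheres by 0.10 (SE 0.12). A second Nhlh1 probe disagreed in sign with the first, at -0.13 (SE 0.50) between TH-MYCN and wild-type SMG and 0.82 (SE 0.36) between primary spheres and TH-MYCN SMG, but it was above background on 3 arrays or fewer of any group. The 2 Nhlh genes did not share a pattern: over the 28 samples their levels had a correlation of 0.365, with Nhlh2 below background in most samples outside TH-MYCN SMG.

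Sox4 and Sox11, the SoxC factors, were lowest in wild-type SMG, higher in TH-MYCN SMG and higher again in both kinds of spheres. Each step except that between primary and passaged spheres was free of overlap.

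Sox11 had 4.37, 4.15, 4.62 and 4.45 in passaged cultures 1 to 4 and 3.61 to 4.40 (median 4.09) in primary spheres. It had 1.68 to 3.22 (median 2.91) in TH-MYCN SMG and -0.98 to 0.09 (median -0.02) in wild-type SMG. TH-MYCN SMG averaged 2.70 ± 0.56 and wild-type SMG -0.18 ± 0.38 (SD, n = 8 each), which is a 7.36-fold difference (log2 2.88, SE 0.22). Primary spheres, at 4.07 ± 0.24 (SD, n = 8), were 2.59-fold above TH-MYCN SMG (log2 1.37, SE 0.20). Passaged spheres, at 4.40 ± 0.19 (SD, n = 4), differed from primary spheres by 0.33 (SE 0.13), with overlap.

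Sox4 had 4.13, 4.39, 4.12 and 4.02 in the passaged cultures and 3.72 to 4.17 (median 3.83) in primary spheres. It had 1.90 to 3.11 (median 2.85) in TH-MYCN SMG and 0.65 to 1.79 (median 1.20) in wild-type SMG. The gap between the ganglia was smaller than for Sox11: TH-MYCN SMG averaged 2.72 ± 0.40 and wild-type SMG 1.24 ± 0.39 (SD, n = 8 each), a 2.78-fold difference (log2 1.47, SE 0.19). Primary spheres averaged 3.86 ± 0.16 (SD, n = 8), 2.21-fold above TH-MYCN SMG (log2 1.14, SE 0.15), and passaged spheres lay 0.31 (SE 0.10) above primary spheres. The second probes of both genes gave the same order of groups, with 4.06-fold and 2.96-fold differences for Sox11 and 2.65-fold and 2.14-fold differences for Sox4, TH-MYCN against wild-type SMG and primary spheres against TH-MYCN SMG. Over the 28 samples the levels of Sox4 and Sox11 had a correlation of 0.977, as a description of samples that fall into groups.

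Dcx, which encodes doublecortin, a microtubule protein of migrating and newly formed neurons, had the same order of groups as the SoxC genes. Its levels were 3.96, 3.68, 3.91 and 3.85 in the passaged cultures and 3.52 to 4.16 (median 3.78) in primary spheres. They were 1.53 to 3.14 (median 2.89) in TH-MYCN SMG and -0.32 to 0.43 (median 0.20) in wild-type SMG. Both kinds of spheres lay above every TH-MYCN SMG, and every TH-MYCN SMG above every wild-type SMG. TH-MYCN SMG averaged 2.72 ± 0.53 and wild-type SMG 0.14 ± 0.22 (SD, n = 8 each), a 6.00-fold difference (log2 2.59, SE 0.19). Primary spheres averaged 3.84 ± 0.24, 2.17-fold above TH-MYCN SMG (log2 1.12, SE 0.19), and passaged spheres 3.85 ± 0.12 (SD, n = 8 and n = 4). The 2 other Dcx probes gave log2 differences of 2.48 and 2.66 between the ganglia and of 1.47 and 1.67 between primary spheres and TH-MYCN SMG.

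Elavl4, which encodes the neuronal RNA-binding protein HuD, differed between spheres and ganglia and hardly between the ganglia. Passaged cultures had 5.46, 4.94, 5.32 and 5.44, and primary spheres 5.26 to 5.51 (median 5.45). TH-MYCN SMG had 2.86 to 3.09 (median 2.97) and wild-type SMG 3.00 to 3.37 (median 3.21). Primary spheres averaged 5.43 ± 0.08 and TH-MYCN SMG 2.98 ± 0.08 (SD, n = 8 each), a 5.47-fold difference (log2 2.45, SE 0.05), and the second probe also gave 2.45. TH-MYCN SMG lay -0.22 (SE 0.07) from wild-type SMG (3.19 ± 0.12), with overlap, and this small difference was 0.0051 once the median gene was set to a difference of 0.

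Stmn2, which encodes stathmin-2 (SCG10), a microtubule regulator of growing axons, was the only one of the 10 genes that was lower in TH-MYCN than in wild-type SMG without overlap. Passaged cultures had 6.83, 6.94, 7.12 and 7.19, and primary spheres 6.98 to 7.33 (median 7.13). TH-MYCN SMG had 6.34 to 7.34 (median 7.03) and wild-type SMG 7.46 to 8.02 (median 7.56). TH-MYCN SMG averaged 6.99 ± 0.29 and wild-type SMG 7.61 ± 0.18 (SD, n = 8 each), a log2 difference of -0.62 (SE 0.12). The primary spheres, at 7.16 ± 0.12, differed from TH-MYCN SMG by 0.17 (SE 0.11), and that sign turned under other scalings (-0.10 with the median gene held equal, -0.75 after quantile normalization).

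Igfbpl1, a secreted relative of the insulin-like growth factor binding proteins that is expressed by newborn neurons, was nearly undetected in wild-type ganglia and highest in TH-MYCN ganglia. Passaged cultures had 0.11, -0.01, 0.64 and -0.29, and primary spheres -0.27 to 0.43 (median 0.15). TH-MYCN SMG had 1.28 to 2.96 (median 2.73). Wild-type SMG had -8.13 to -3.70 (median -7.46), with 1 of 8 arrays, that of wild-type SMG 3, above background. No group overlapped another except the 2 kinds of spheres. The fitted difference between the ganglia, 9.52 (SE 0.50), rests on undetected signals, and it was 5.71 with another background correction (normexp). Primary spheres, at 0.10 ± 0.21 (SD, n = 8), were 5.19-fold lower than TH-MYCN SMG, at 2.48 ± 0.58 (SD, n = 8; log2 -2.38, SE 0.21). Nhlh2 was the other gene that was lower in primary spheres than in TH-MYCN SMG without overlap.

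**Figure D2:**
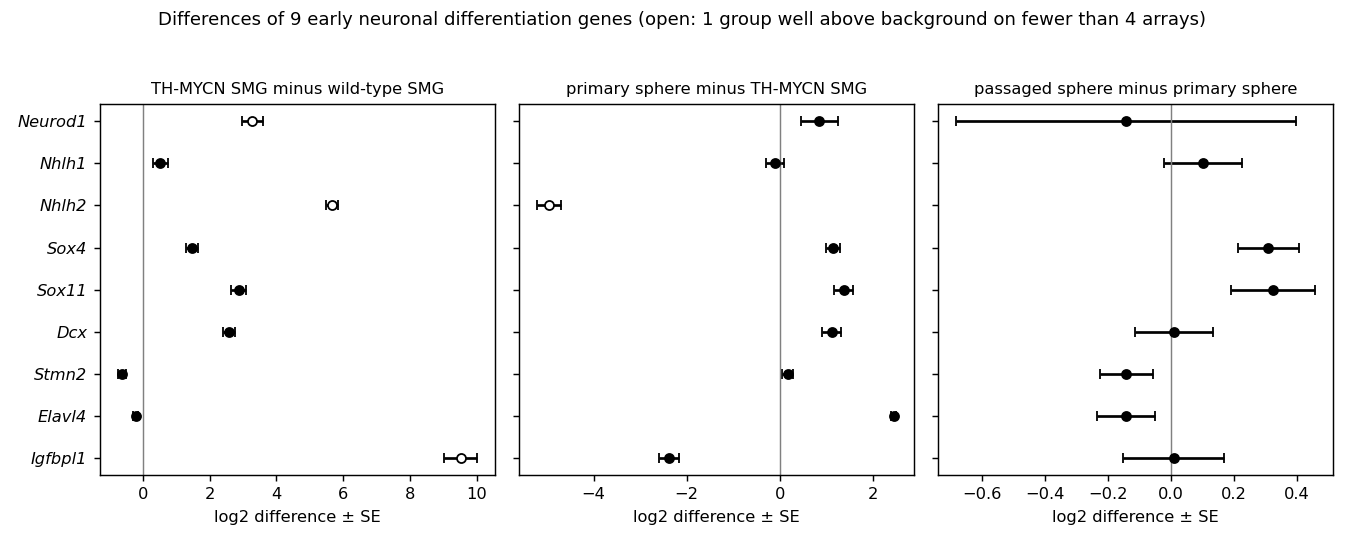
Log2 difference ± SE of the fit for 9 of the 10 genes (rows) in TH-MYCN SMG minus wild-type SMG, primary sphere minus TH-MYCN SMG and passaged sphere minus primary sphere (panels, each with its own scale on the x axis). Open points mark genes for which 1 group was well above background on fewer than 4 arrays, so that the size is uncertain. Sox4, Sox11 and Dcx lie right of 0 in the left and the middle panel, Nhlh2 and Igfbpl1 lie right of 0 in the left and left of 0 in the middle panel, and all points of the right panel lie within 0.33 of 0.

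In the test across all genes (limma, called at a Benjamini-Hochberg adjusted p under 0.05), 9 of the 9 genes tested were called between TH-MYCN and wild-type SMG, 7 higher and 2 lower, where 65.7% of all 15845 genes were called (21.9% higher, 43.8% lower). Of the 9, 6 were higher and 1 was lower without overlap between the groups, as were 9.17% and 12.4% of all genes (21.5% in all). Between primary spheres and TH-MYCN SMG, 6 of 9 were called, 4 higher (Sox4, Sox11, Dcx, Elavl4) and 2 lower (Nhlh2, Igfbpl1), where 83.2% of 15650 genes were called (50.2% higher, 32.9% lower). The same 4 and 2 did not overlap, as was so for 34.6% and 23.3% of all genes (57.9% in all). Between passaged and primary spheres, 0 of 8 were called, where 11.6% of 14242 genes were called (5.13% higher, 6.44% lower), and 0 were free of overlap, as were 4.65% of all genes on the higher and 4.49% on the lower side (9.14% in all). Sox4 alone was called, as higher in passaged spheres, with slide as a block, with the mean of its probes, with no filter on dim probes and without primary sphere 5. Between the ganglia, the calls of Elavl4, Neurod1 and Nhlh1 were lost with normexp. These contrasts served to choose the 10 genes. The first 2 comparisons share the TH-MYCN SMG samples, and the last 2 share the primary spheres.

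Shared slides allowed the ganglia to be compared within each slide. In slides 1 and 2 the difference between TH-MYCN and wild-type SMG was 3.12 and 2.63 for Sox11, 1.71 and 1.24 for Sox4, 2.61 and 2.56 for Dcx, 5.55 and 5.80 for Nhlh2, and -0.61 and -0.64 for Stmn2. Each of these kept its sign in both slides. Of the genes not shown here, Elavl4 was not called within slide 1 or slide 2, and Nhlh1 was not called within slide 2. Without TH-MYCN SMG 4 the pooled differences were 3.02 for Sox11, 1.59 for Sox4 and 2.76 for Dcx. Between passaged and primary spheres, slides 3 and 4 gave 0.35 and 0.27 for Sox4, 0.21 and 0.44 for Sox11, and 0.36 and -0.64 for Neurod1.

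Among the 8 TH-MYCN ganglia, the levels of 6 of the 9 detected genes were correlated with the mitosis score, all with r above 0, beside 17.6% of 15217 genes with r above 0 and 22.2% with r below 0. The genes were not chosen by variation within this group, and it was tested with an exact permutation test over 40320 pairings (two-sided, Benjamini-Hochberg over the 15217 genes). They were chosen with their levels in TH-MYCN and wild-type SMG known, and the 6 are among the 7 called higher between those groups. All 16 mitosis genes were called higher there too, so the test is not fully independent of the choice. The share of correlated genes among all genes called higher between the ganglia was not computed. Some scores of other cells also differed between the ganglia with the highest and the lowest mitosis score, in either direction. The ganglion with the highest mitosis score (TH-MYCN SMG 2, 2.49) had a glial score of 0.60, a macrophage score of 2.49 and a mature neuron score of 3.72. The ganglion with the lowest (TH-MYCN SMG 4, 0.38) had a glial score of 1.58, a macrophage score of 1.58 and a mature neuron score of 4.32. The fibroblast score hardly differed, at 3.48 in TH-MYCN SMG 2 and 3.42 in TH-MYCN SMG 4. The part of other cells in the correlations was not tested.

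Sox11 had the highest r, 0.982 (p = 1.98e-04, adjusted p = 0.00337, exact permutation), with Spearman's rho = 0.952 (adjusted p = 0.00791, exact permutation). Without the 2 ganglia farthest from the median score, Sox11 had r = 0.955 (adjusted p = 0.0454, exact permutation), and with values centred within slides r = 0.982. Those 2 were TH-MYCN SMG 4 and 5, which had the lowest scores. With so few ganglia left, the smallest adjusted p of any of the 15217 genes was 0.0390 (exact permutation). A gene that did not pass in this form may therefore still be related to the score. Nhlh2 had r = 0.850 (p = 0.00709, adjusted p = 0.0246, exact permutation), rho = 0.833 (adjusted 0.0418) and r = 0.963 (adjusted 0.0390) without those ganglia. These are the 2 genes whose relation passed in all of these forms, although with normexp that of Sox11 did not pass without the 2 ganglia (adjusted p = 0.0690, exact permutation).

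Igfbpl1 (r = 0.948, p = 0.00184, adjusted 0.0104; rho = 0.833, adjusted 0.0418, exact permutation) and Dcx (r = 0.944, p = 0.00112, adjusted 0.00780; rho = 0.881, adjusted 0.0250, exact permutation) passed over all 8 ganglia. Without the 2 farthest ganglia they had r = 0.813 (adjusted p = 0.145) and r = 0.881 (adjusted p = 0.109, exact permutation), which did not pass. Sox4 (r = 0.844, p = 0.0147, adjusted 0.0403) and Neurod1 (r = 0.838, p = 0.0127, adjusted 0.0362, exact permutation) also passed over all 8. Without those ganglia they had r = 0.655 (adjusted 0.307) and r = 0.559 (adjusted 0.391, exact permutation), which did not pass. Their rho, 0.548 and 0.524, did not pass (adjusted 0.268 and 0.299, exact permutation), and with normexp neither r passed. Nhlh1 did not pass over all 8 (r = 0.483, p = 0.228, adjusted 0.328; rho = 0.690, adjusted 0.130, exact permutation) and had r = 0.981 (adjusted 0.0454) without the 2 farthest. Elavl4 did not pass (r = -0.294, p = 0.490, adjusted 0.599; rho = -0.143, adjusted 0.824, exact permutation). Nor did Stmn2 (r = -0.337, p = 0.384, adjusted 0.495; rho = -0.476, adjusted 0.353, exact permutation). After quantile normalization Stmn2 had r = -0.786 (adjusted 0.0556) and rho = -0.905 (adjusted 0.0179, exact permutation), the second of which passed. The mitosis score and the genes were read from the same arrays.

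**Figure D3:**
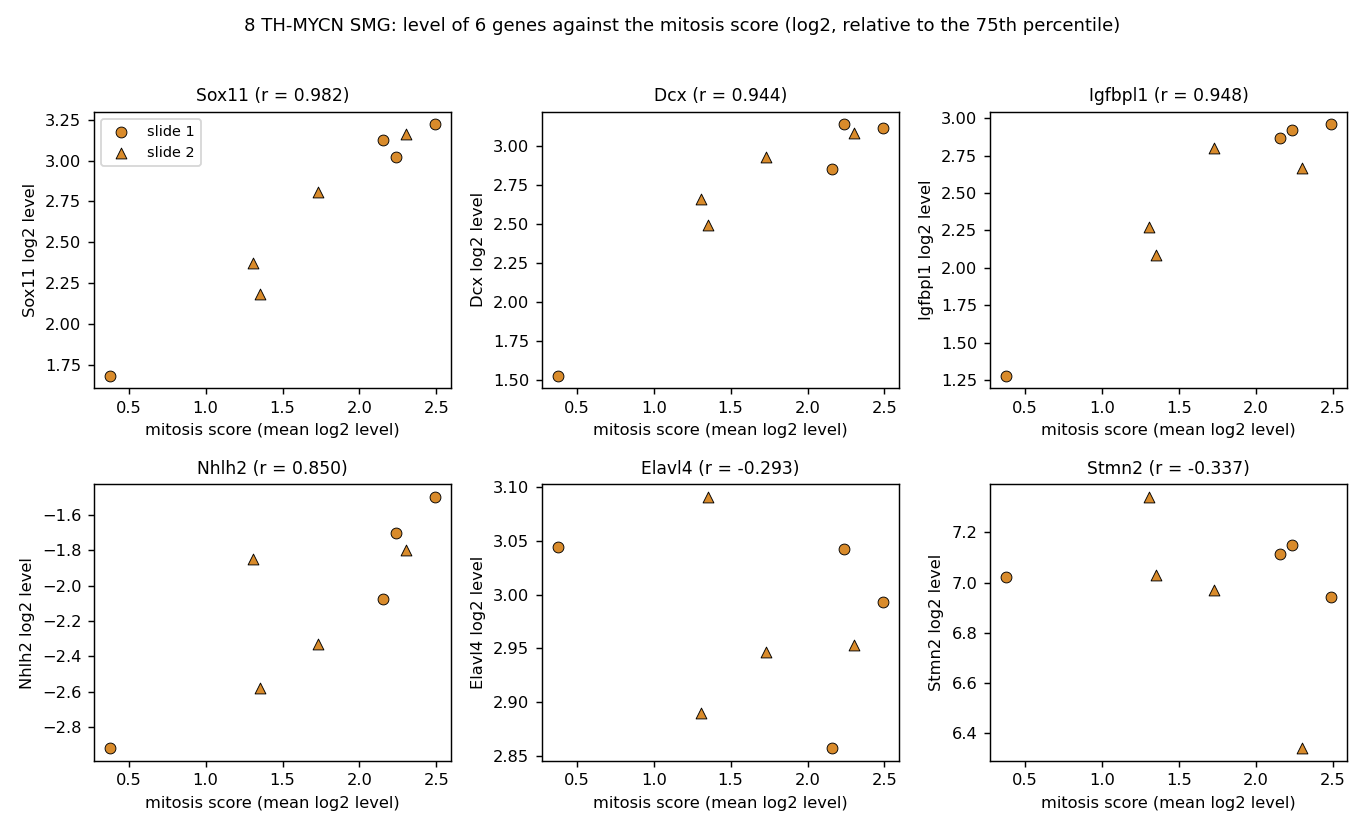
Level of Sox11, Dcx, Igfbpl1, Nhlh2, Elavl4 and Stmn2 (y axes, log2) against the mitosis score (x axes, mean log2 level of 16 genes) in the 8 TH-MYCN SMG, with circles for slide 1 and triangles for slide 2. Sox11 is higher where the score is higher (r = 0.982), TH-MYCN SMG 4 lies alone at a score of 0.38, and Elavl4 and Stmn2 did not pass in this scaling.

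Primary spheres of slide 3 and slide 4, 4 cultures each, were compared in the same way as the groups, since this split did not serve to choose the genes. Dcx averaged 3.65 ± 0.12 on slide 3 and 4.02 ± 0.16 on slide 4 (SD, n = 4 each), a log2 difference of -0.37 (SE 0.10, limma adjusted p = 0.0412), and 1 of 8 genes tested was thus called, beside 12.9% of 14135 genes (8.38% higher, 4.51% lower). The call was lost without any of primary spheres 1 to 7, and the adjusted p was then 0.0564 to 0.119. The 7 others were not called, among them Neurod1 (-0.79, adjusted p = 0.0906) and Sox11 (0.30, adjusted p = 0.158). Of the other early neuronal genes, Id4 (0.89, adjusted p = 0.00130) and Nes, which encodes nestin (3.07, adjusted p = 2.02e-04), were among those higher on slide 3, and Neurod6 (-0.78, adjusted p = 0.0331) and Dclk2 (-0.31, adjusted p = 0.0399) were lower. The part of glial and fibroblast signal in these differences was not tested.

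A wider list of 54 other early neuronal genes, grouped by role, was tested in the same fits. It was drawn up with earlier results of these data known. Between TH-MYCN and wild-type SMG, 20 of 49 tested genes rose and 15 fell, beside 21.9% and 43.8% of all genes, with a median difference of 0.01 in the list and -0.22 over all genes. Between the same groups 16 of 16 mitosis genes and 7 of 8 macrophage genes were called higher, 6 of 8 fibroblast genes and 9 of 11 glial genes were called lower, and the part of these in the results was not tested. Of the proneural and neurogenic bHLH genes, Neurod6, another NeuroD factor, was at least 34.8-fold higher, with 0 of 8 wild-type arrays above background. Its fitted log2 difference was 3.01 with normexp. It passed the filter on dim probes through TH-MYCN SMG only, so its p-value is not given.

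The partners and inhibitors of bHLH factors split by kind. All 3 E proteins rose: Tcf4 (2.08, SE 0.19, adjusted p = 1.79e-07), Tcf3 (1.05, SE 0.15, adjusted p = 2.12e-05) and Tcf12 (0.97, SE 0.12, adjusted p = 6.74e-06). The 5 others fell, namely Id1 (-0.79), Id2 (-0.56), Id3 (-0.94), Id4 (-1.16, SE 0.26, adjusted p = 8.80e-04) and Rest (-0.80), which encodes a repressor of neuronal genes. The fall of Rest did not pass once the median gene was set to a difference of 0.

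Of 13 other transcription factors of new neurons, 9 rose and 2 fell. Insm1, a zinc-finger factor of neuroendocrine and neuronal progenitors, rose by 7.46 on the log2 scale (SE 0.32, adjusted p = 3.36e-11; 4.16 ± 0.75 in TH-MYCN SMG and -3.29 ± 0.63 in wild-type SMG). Onecut2 rose by 4.17 (SE 0.22, adjusted p = 2.44e-10) and Ebf3 by 3.14 (SE 0.23, adjusted p = 1.09e-08). The 2 that fell were Pou4f1 (-0.80) and Ebf2 (-0.33), and the call of Ebf2 was lost with the median gene set to a difference of 0. The remaining SoxC gene, Sox12, rose by 0.98 (SE 0.13, adjusted p = 1.33e-05).

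Relatives of the effector genes moved both ways. Of 7 stathmin, Hu and doublecortin relatives, 3 rose (Stmn4 0.59, Elavl3 0.56, Stmn1 0.51) and 2 fell (Stmn3 -0.62, Dclk1 -0.61). Of 16 genes of axon growth and the immature cytoskeleton, 3 rose and 6 fell: Marcksl1, a regulator of the actin cytoskeleton, rose by 2.67 (SE 0.20, adjusted p = 1.51e-08), while Nrn1 (-1.14) and L1cam (-0.89) were the largest falls. Tubb3 (-0.53) and Gap43 (-0.36) were also among the 6 that fell, and the call of Gap43 was lost once the median gene was set to a difference of 0. Of 11 mature neuron markers, 8 were called lower and none higher.

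**Figure D4:**
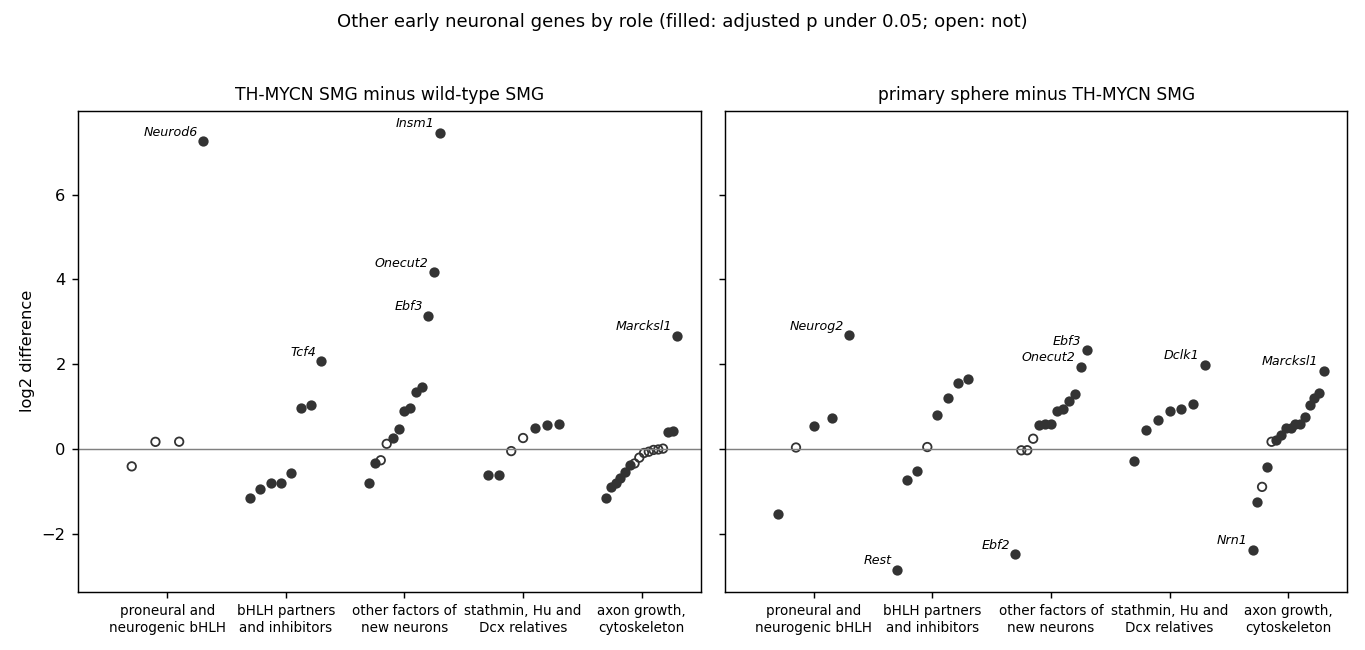
Log2 difference of tested other early neuronal genes (points) by role (x axis) in TH-MYCN SMG minus wild-type SMG and in primary sphere minus TH-MYCN SMG (panels), filled where the limma adjusted p was under 0.05. Insm1 and Neurod6 stand highest on the left, at over 7, and Rest and Ebf2 lowest on the right.

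Between primary spheres and TH-MYCN SMG, 34 of 50 tested genes of the wider list rose and 9 fell, beside 50.2% and 32.9% of all genes. The median difference was 0.59 in the list and 0.27 over all genes. The E proteins Tcf4 (1.65, SE 0.19), Tcf3 (1.56, SE 0.11) and Tcf12 (1.21, SE 0.13) rose here too, but the Id genes did not move together. Id2 rose (0.80, SE 0.09), Id3 (-0.51, SE 0.21) and Id4 (-0.74, SE 0.27) fell, and Id1 did not pass (0.05, SE 0.16). The call of Id4 was lost after quantile normalization and with normexp, where its sign turned. Neurog2 was above background on 5 of 8 primary sphere arrays and on no TH-MYCN SMG array, and was at least 1.83-fold higher in primary spheres. It passed the filter on dim probes through primary spheres only, so its p-value is not given. Neurod6 fell by 1.53 (SE 0.32, adjusted p = 3.46e-04). Rest fell by 2.85 (SE 0.40, adjusted p = 4.13e-06), with 2 of 8 primary sphere arrays above background.

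Ebf3 (2.34, SE 0.22) and Onecut2 (1.95, SE 0.21) were the largest rises among other transcription factors, and Ebf2 (-2.48, SE 0.13, adjusted p = 2.23e-11) was the only fall of that group. Insm1 did not pass (0.25, SE 0.26, adjusted p = 0.376). Dclk1, a kinase related to doublecortin, rose by 1.99 (SE 0.12, adjusted p = 1.40e-10), Stmn4 by 1.06 (SE 0.09) and Stmn1 by 0.94 (SE 0.10), and the calls of Stmn4 and Stmn1 were lost after quantile normalization. Marcksl1 (1.85, SE 0.18) and Basp1 (1.33, SE 0.16) rose and Nrn1 fell (-2.37, SE 0.36). After quantile normalization 23 genes of the wider list rose and 14 fell, and 4 bright genes, Cd24a, Gap43, Tuba1a and Tubb3, were then called lower instead of higher. Glial (10 of 11), macrophage (8 of 8) and fibroblast (7 of 8) genes fell between the same groups and 16 of 16 mitosis genes rose, and the part of either in these results was not tested.

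Between passaged and primary spheres, 3 of 49 tested genes of the wider list were called, 2 higher and 1 lower, beside 5.13% and 6.44% of all genes. Insm1 rose by 0.95 (5.36 ± 0.32 in passaged spheres, n = 4, and 4.41 ± 0.18 in primary spheres, n = 8; SE 0.14, limma adjusted p = 0.00195) and Id1 by 0.82 (SE 0.24, limma adjusted p = 0.0469). Id4 was above background on 0 of 8 passaged arrays and was at least 1.45-fold lower there. It passed the filter on dim probes through primary spheres only, so its p-value is not given. The call of Id1 was lost with the median gene set to a difference of 0 or after quantile normalization, and that of Id4 after normexp background correction.

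Genes with the most similar pattern were sought over the 28 samples among 15133 other genes, by Pearson's r of the levels. The samples fall into groups, so a high r says mostly that the order of the groups was alike. Closest to Sox11 were Tedc1 and Cdt1 (r = 0.995 each), and Cdt1 encodes a licensing factor of DNA replication. Closest to Dcx were Tacc3 (r = 0.995), which encodes a mitotic spindle protein, and 2610318N02Rik (r = 0.994), and closest to Sox4 were Cand2 (r = 0.991) and Abl1 (r = 0.990). Elavl4 was closest to Etv4 and Synpo2 (r = 0.991 each), and Igfbpl1 to Slit1 (r = 0.978) and Nfe2l3 (r = 0.963). Nhlh2 was closest to Gm6460 (r = 0.967) and E4f1 (r = 0.963), Neurod1 to Slc25a13 (r = 0.937) and Sspo (r = 0.933), Stmn2 to Ndufa11 (r = 0.909) and Get1 (r = 0.892), and Nhlh1 to Gm10778 (r = 0.885) and Ppp1r3b (r = 0.833). Among the 9 detected genes themselves, Sox4, Sox11 and Dcx were most alike (r = 0.969 to 0.985 between pairs), Stmn2 ran against each of the 8 others (r = -0.789 to -0.239), and Nhlh2 ran against Elavl4 (r = -0.447).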

How the data were processed

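The authors labelled 40 or 200 ng of RNA with Cy3, per the labels' protocols (the amount per sample is not stated), and the RNA integrity number was over 8. Spots were read with Agilent Feature Extraction 11.5.1.1, per the file headers. The deposited spot intensity had its background subtracted array by array, with no scaling between arrays, per the file headers. The authors' deposited value table holds log2 values: 99.86% of them equal the values used here less a constant per probe, within 0.05. Its array medians ran from -0.483 to 0.506, and the reference of its centring is not known.

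Values were log2 of the intensity less the 75th percentile of each array. Controls and spots marked as outliers (109 to 211 per array) were left out, 0 spots were saturated, and spots of a probe were averaged. Accessions were matched to RefSeq names of GRCm38.p6, which named 27235 probes and left 28446 unnamed. A probe was kept where well above background in at least 4 samples of a comparison, and a gene was its brightest kept probe. A bound ("at least") sets the brighter group's mean against a floor in the dimmer one: per array, the probe's own signal or, if higher, the lowest signal above background. Probes not above background can lie above that lowest signal, so a bound is no strict limit and holds for this background correction only. With normexp, the differences of Neurod1, Nhlh2 and Neurod6 between the ganglia were smaller than their bounds. Pairs of groups were fitted with limma 3.58.1 in R 4.3.3 (two-sided, Benjamini-Hochberg over the genes tested), checked on simulated data. Correlations were adjusted over all genes above background in the TH-MYCN SMG in place of the 9 genes planned. The 10 genes, the wider list and the marker lists were chosen with earlier results of these data known. Within the wider list, up to 3 called genes per role and comparison with the largest differences were named, and further ones to account for small counts. Sox12, Id1 to Id3, Tubb3, Gap43 and the genes of the comparison by slide were chosen after their values were seen. So were the Id genes between primary spheres and TH-MYCN SMG. Samples of a group are separate per the labels' design. Alternatives were other background correction, scaling, filters, probe rules, slide and replicate blocks, and leaving out each sample. Some results are not reported here. The number of arrays limits the precision.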

Additional observations from a re-analysis of the deposited data

Results flagged for a closer look

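In 6 of 40 groups of values of the 10 genes, 1 sample lay far from the others by Dixon's criterion, which chance alone meets in about 1 group in 20. In TH-MYCN SMG 4, Dcx was lowest at 1.53 (nearest 2.49), in the sample that also had the lowest mitosis score. In TH-MYCN SMG 8, Stmn2 was lowest at 6.34 (nearest 6.94). In wild-type SMG 3, Igfbpl1 was highest at -3.70 (nearest -6.67), the 1 wild-type array on which it was well above background. In wild-type SMG 1, Stmn2 was highest at 8.02 (nearest 7.68). In primary sphere 5, Sox4 was highest at 4.17 (nearest 3.93), and in passaged sphere 1, Nhlh1 was highest at -1.84 (nearest -2.13).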

How the results depend on the processing

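No difference of the 10 genes called in the main setting changed sign under any alternative run, except Elavl4 between TH-MYCN and wild-type SMG, which was 0.0051 with the median gene set to a difference of 0. That shift, from medians of -0.22 and 0.27, moved the share of calls that were higher to 55.4% (main 33.3%) between the ganglia and to 48.3% (main 60.4%) between primary spheres and TH-MYCN SMG. Sizes of dim genes depended on the background correction: with normexp, Neurod1 differed between the ganglia by 0.28 and Nhlh2 by 1.62. Other early neuronal genes called lower numbered 9 within slide 1 between the ganglia, and 14 after quantile normalization between primary spheres and TH-MYCN SMG.

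Between passaged and primary spheres, genes called numbered 1647 in the main setting, 979 with normexp, 5290 with no filter on dim probes, 1030 within slide 3, 956 within slide 4, and 775 to 1745 when 1 sample was left out (809 without passaged sphere 2, 775 without passaged sphere 4). Other early neuronal genes called higher (main 2) numbered 1 after quantile normalization, in the deposited value table, with the median shift and with all 4 groups in one fit, 4 with no filter and with the mean of probes, 5 with slide as a block, and 1 to 4 when 1 sample was left out. Those called lower (main 1) numbered 0 with normexp, 2 after quantile normalization, with no filter and within slide 3, 3 with slide as a block and within slide 4, 4 with all 4 groups in one fit, and 1 to 2 when 1 sample was left out. Primary spheres by slide gave 821 to 1660 called genes (main 1822) when 1 sample was left out, with 821 without primary sphere 2. Causes were not tested.

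Among the values of r with the mitosis score, those that changed sides of the threshold were Neurod1 (0.559 without the 2 farthest ganglia, 0.731 with normexp), Sox4 (0.655 without those ganglia, 0.833 with normexp), and, without those ganglia, Dcx (0.881), Igfbpl1 (0.813) and Nhlh1 (0.981). Among the rho, Nhlh1 passed with normexp (0.833) and Stmn2 after quantile normalization (-0.905). Of the 9 genes called between the ganglia, 6 were called with normexp, 7 within slide 2 and 8 with quantile normalization, the median shift, no filter, the mean of probes or within slide 1, and Neurod1, Nhlh1 and Elavl4 were those lost. Nhlh1 was also lost without any of TH-MYCN SMG 1 to 4 or 8 or wild-type SMG 1 or 6 to 8. Between primary spheres and TH-MYCN SMG, Neurod1 was also called with normexp, quantile normalization or the mean of probes, and without any of primary spheres 1 or 3 or TH-MYCN SMG 1, 3 or 8, and Stmn2 was called lower after quantile normalization.

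Replicate numbers were not taken as pairs, because not every same-numbered pair had deviations correlated over 0.1: 7 of 8 did between the ganglia (-0.01 to 0.37), 1 of 8 between primary spheres and TH-MYCN SMG (-0.08 to 0.15) and 2 of 4 between the spheres (-0.01 to 0.21). The best partner was the own number for 4 of 8, 1 of 8 and 4 of 4. With a replicate block, 11238, 13058 and 934 genes were called in the 3 comparisons, and 1 other early neuronal gene rose and 2 fell between the spheres. Genes near background, among them Neurod1, Nhlh2 and Igfbpl1 in wild-type SMG, have levels of uncertain size.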
